A study of Mus musculus with 4 samples.

Results

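Cardiac fibroblast and epicardial genes are described here through 10 loci: the transcription factor genes Tcf21, Wt1 and Tbx18, the receptor kinase genes Pdgfra and Ddr2, the cell-surface genes Thy1 and Pdpn, the protease gene Fap and the proteoglycan genes Dcn and Lum. The members were named by cell type, though with earlier results of these data known. Each was given the CCGG sites inside its RefSeq span on mm10 and in the 2 kb on either side. Of 304 such sites listed in any sample, 271 were listed in all 4 samples and were used, out of 996020 sites listed in all 4 across the genome. The same sums were made for 20665 protein-coding autosomal genes, of which 16887 had the 5 sites required for a count. Of the 10 members, 9 had at least 5 sites. Lum had 3 sites, so its values are given but it enters no count.

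DNA came from the left ventricle of C57BL/6 mice aged 8 weeks, taken 3 days after myocardial infarction. The 4 samples were infarcted Neil3-null (Neil3-/-), non-infarcted Neil3-null, infarcted wild-type and non-infarcted wild-type ventricle, with 1 sample per group. Neil3 encodes a DNA glycosylase, a repair enzyme that removes oxidized bases. The labels date the non-infarcted tissue from an infarction too, and no group of hearts without one is described. The sources used here do not say how the Neil3 allele was made or how many animals gave a sample. Cell identity could not be checked against marker levels, since DNA and not RNA was measured.

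In the adult heart, fibroblasts lie between the cardiomyocytes and make the collagen scaffold, and many of them descend from the epicardium, the cell sheet on the heart's surface. Epicardial cells that carry Wt1 and Tbx18 can leave the sheet, switch on Tcf21 and Pdgfra and become fibroblasts. After an infarct, fibroblasts divide and turn on genes of activation, among them Fap and Pdpn, while scar matrix is laid down. Cytosine methylation (5mC) at the start of a gene is generally found where the gene is silent, and 5-hydroxymethylcytosine (5hmC) is an oxidized form often found in the bodies of active genes.

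The assay reads short tags at CCGG, a motif cut by a pair of enzymes. HpaII cuts it when it is not modified. MspI also cuts it when the inner cytosine is methylated or hydroxymethylated. MspI after glucosylation, which shields 5hmC, gives the C+mC library. The HpaII to MspI ratio, in percent of summed signal, is therefore higher where sites are less modified, and the C+mC to MspI ratio is lower where 5hmC takes a larger share. The deposited signal summed to between 34161766 and 43985354 per library, with all 3 libraries of infarcted wild-type tissue lowest, and was divided by no total here. Ratios are therefore relative and can exceed 100%. One C+mC library, that of non-infarcted wild-type ventricle, differed from the other 3. Its log2 signal correlated with that of MspI at r = 0.534 across autosomal sites, against 0.725 in infarcted Neil3-null, 0.698 in non-infarcted Neil3-null and 0.701 in infarcted wild-type tissue. Every C+mC value compared with that sample rests on this library. The log2 HpaII signal correlated more weakly with MspI in every sample. There r was 0.194 in infarcted Neil3-null, 0.212 in non-infarcted Neil3-null, 0.188 in infarcted wild-type and 0.182 in non-infarcted wild-type tissue. All HpaII to MspI ratios below rest on these libraries.

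The sequences at the annotated starts show how sparsely this assay reads some of these genes. A RefSeq start sequence (GRCm38.p6, the mm10 assembly) was matched for 5 of the 10 members, Pdgfra, Tcf21, Tbx18, Ddr2 and Pdpn, each running from 250 bases before the start to 50 after it. The motif searched was CCGG, which reads the same on both strands, and 52.8% of 32851 RefSeq start sequences of this length held it. Pdgfra, Tcf21, Ddr2 and Pdpn each had 1 CCGG there and Tbx18 had none. The lines below give 30 bases around each motif, 5′ to 3′ on the gene's strand, with the CCGG in capitals, and the upstream bases of Tbx18, which hold no capital.
Pdpn, chr4:143299531-143299560, minus strand: cggtcctagatctCCGGgaccacctgacgc
Ddr2, chr1:170089034-170089063, minus strand: gtcccatcagaacCCGGggtgcttgggatc
Pdgfra, chr5:75152011-75152040, plus strand: tgaaacctctttcCCGGcagaacgtcaaca
Tcf21, chr10:22820299-22820328, minus strand: aggaagaaggaatCCGGtacaggcatgttg
Tbx18, chr9:87731261-87731510, minus strand: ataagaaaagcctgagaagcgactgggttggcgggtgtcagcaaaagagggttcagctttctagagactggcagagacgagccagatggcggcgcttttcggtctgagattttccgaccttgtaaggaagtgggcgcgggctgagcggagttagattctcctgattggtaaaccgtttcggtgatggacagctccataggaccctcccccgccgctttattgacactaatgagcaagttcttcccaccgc

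The Pdpn and Ddr2 motifs gave values in all 4 samples and differed in which library was stronger. At the Pdpn motif the HpaII signal was 86.4 in infarcted Neil3-null, 53.9 in non-infarcted Neil3-null, 75 in infarcted wild-type and 56.4 in non-infarcted wild-type tissue, and the MspI signal was 6.29 and 8.14 in infarcted and non-infarcted Neil3-null tissue, and 3.46 and 5.44 in infarcted and non-infarcted wild-type tissue. At the Ddr2 motif the HpaII signal was 35.2 and 53.0 in infarcted and non-infarcted Neil3-null tissue, and 66.1 and 80.1 in infarcted and non-infarcted wild-type tissue. The MspI signal was 128 and 123 in infarcted and non-infarcted Neil3-null tissue, and 132 and 148 in infarcted and non-infarcted wild-type tissue. The Pdpn MspI values lie under the 5th percentile of their libraries in every sample but non-infarcted Neil3-null, where that percentile was 7.67, so the ratio there rests on little signal. HpaII thus exceeded MspI at Pdpn and fell short of it at Ddr2 in every sample. The Ddr2 start used by RefSeq lies inside the annotated span of the gene and had 2 CG pairs in its 300 bases, against 15 at Tbx18 and a median of 7 over all start sequences. The motifs of Pdgfra and Tcf21 had no value that could be used here.

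By summed signal, the members fell into a less modified and a more modified set. The 3 epicardial and lineage factors, both cell-surface genes and Pdgfra had HpaII to MspI ratios between 117% and 252%, whereas Dcn, Lum, Ddr2 and Fap lay between 78.8% and 105% (the plot of levels by sample). The median over all 16887 genes was 119%, 117%, 119% and 114% in infarcted Neil3-null, non-infarcted Neil3-null, infarcted wild-type and non-infarcted wild-type tissue. The split did not hold by the median site, with each site's ratio averaged over the 4 samples. Pdgfra then stood at 90.3%, below Ddr2 at 109.7% and close to Fap at 88.7%. The split by summed signal ran along site density: Dcn, Lum, Ddr2 and Fap had 2.42 to 4.91 sites per 10 kb, and the other members 6.16 to 21.7. Over all genes the ratio was also lower where sites were sparse. In non-infarcted wild-type tissue the median was 101% over genes with fewer than 3 sites per 10 kb. It was 139% over genes with 12 or more. The part that density plays in the split was not tested.

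**Figure D1:**
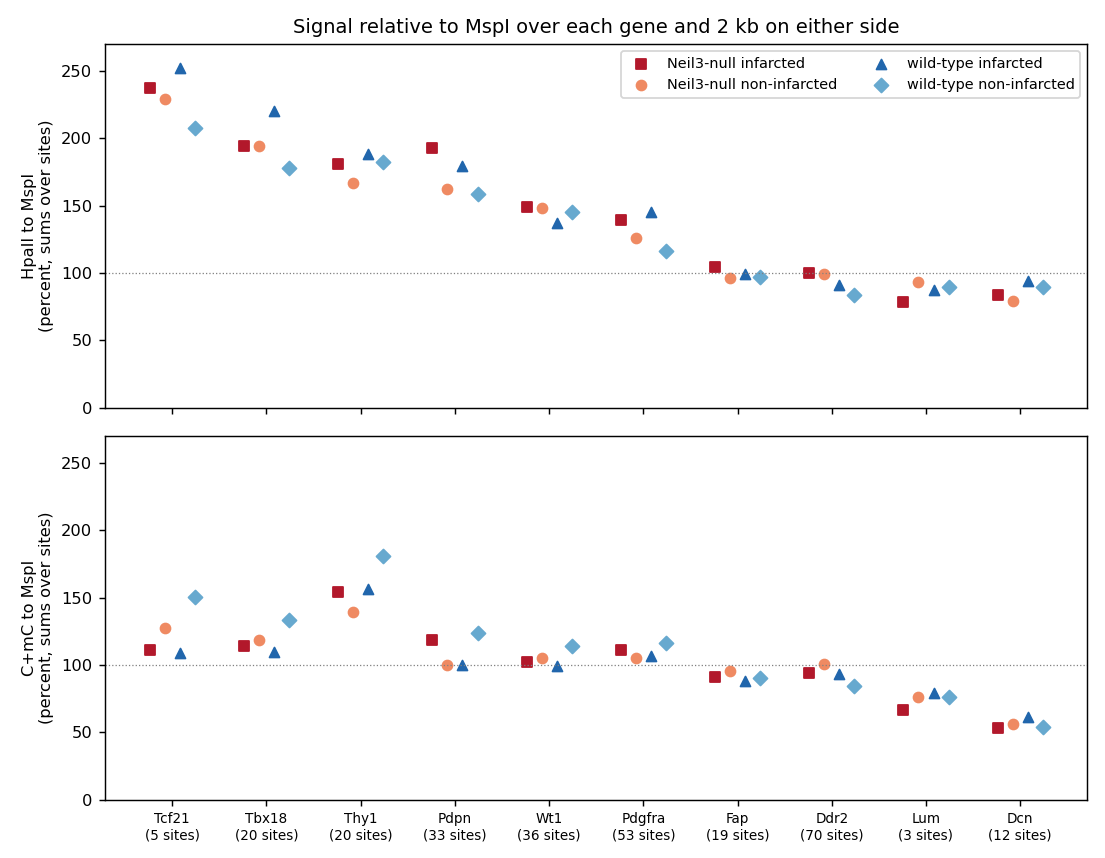
HpaII to MspI ratio (top) and C+mC to MspI ratio (bottom) in percent of summed signal over the sites of each gene and 2 kb on either side, with 1 point per sample and the number of sites under each name. Tcf21 lies highest in the upper panel in all 4 samples, with Dcn, Lum, Ddr2 and Fap at its lower end, and Dcn lies lowest in the lower panel in all 4 samples.

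Tcf21, which encodes a basic helix-loop-helix factor needed for epicardial cells to become fibroblasts, spans chr10:22817263-22820143 and had 5 sites. Its HpaII to MspI ratio was 237% in infarcted Neil3-null, 229% in non-infarcted Neil3-null, 252% in infarcted wild-type and 208% in non-infarcted wild-type tissue. The mean of these was higher than in 95.4% of all genes. The HpaII signal of the 5 sites ran from 97.7 to 157 over the 4 samples, and only the site 541 bp inside the lower-coordinate end had an MspI signal that high, at 141 and 128 in infarcted and non-infarcted Neil3-null tissue, and 133 and 157 in infarcted and non-infarcted wild-type tissue.

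Tbx18, a T-box factor gene of the epicardium on chr9:87702800-87731260, had 20 sites and ratios of 195%, 194%, 220.4% and 178% in infarcted Neil3-null, non-infarcted Neil3-null, infarcted wild-type and non-infarcted wild-type tissue. The 13 sites within 10 kb of its start, which is the upper-coordinate end, stood at 246% and 245% in infarcted and non-infarcted Neil3-null tissue, and 278% and 224% in infarcted and non-infarcted wild-type tissue. The 4 sites within 10 kb of the other end stood at 89.3% and 90.7% in infarcted and non-infarcted Neil3-null tissue, and 86.8% and 77.7% in infarcted and non-infarcted wild-type tissue, so the start end was the less modified one in every sample.

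Wt1, the zinc finger factor gene that marks epicardial cells, spans chr2:105126529-105173614, overlaps the annotated Wt1os and had 36 sites. Its ratio was 149% and 148% in infarcted and non-infarcted Neil3-null tissue, and 137% and 145% in infarcted and non-infarcted wild-type tissue. The gene was uneven along its length. The 13 sites within 10 kb of the lower end stood at 295% and 276% in infarcted and non-infarcted Neil3-null tissue, and 271% and 268% in infarcted and non-infarcted wild-type tissue. The 11 interior sites stood at 68.8% and 75.7% in infarcted and non-infarcted Neil3-null tissue, and 64.4% and 74.3% in infarcted and non-infarcted wild-type tissue, and the 12 sites within 10 kb of the upper end between 85.5% and 89.5% in the 4 samples. The tables used here give no strand for Wt1, so neither end is called its start.

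Pdgfra encodes a receptor for platelet-derived growth factor found on resident fibroblasts. It spans chr5:75151322-75198206, overlaps the annotated Mir7025 and had 53 sites. Its ratio was 139% in infarcted Neil3-null, 126% in non-infarcted Neil3-null, 145% in infarcted wild-type and 117% in non-infarcted wild-type tissue, and both infarcted samples were above both non-infarcted ones. The 15 sites within 10 kb of the lower end, which holds the RefSeq start, stood at 291% and 272% in infarcted and non-infarcted Neil3-null tissue, and 333% and 291% in infarcted and non-infarcted wild-type tissue. The 15 sites within 10 kb of the far end stood at 98.2% and 74.4% in infarcted and non-infarcted Neil3-null tissue, and 89.3% and 69.8% in infarcted and non-infarcted wild-type tissue.

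Ddr2, a receptor tyrosine kinase gene whose product binds fibrillar collagen, is the longest member (chr1:169972307-170110836, overlapping 3110045C21Rik) and had 70 usable sites. Its ratio was 100.4%, 99%, 91.4% and 83.9% in infarcted Neil3-null, non-infarcted Neil3-null, infarcted wild-type and non-infarcted wild-type tissue, so both Neil3-null samples were above both wild-type ones. Within 1 kb of its RefSeq start, 3 sites stood at 57.6% and 64.3% in infarcted and non-infarcted Neil3-null tissue, and 70.3% and 83.7% in infarcted and non-infarcted wild-type tissue. The other 67 stood at 103% and 101% in infarcted and non-infarcted Neil3-null tissue, and 93.0% and 83.9% in infarcted and non-infarcted wild-type tissue.

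Thy1, a glycoprotein gene of fibroblasts, T cells and neurons on chr9:44043384-44048579 that overlaps Gm39323, had the densest sites, with 20 sites or 21.7 per 10 kb. Its ratio was 181% and 167% in infarcted and non-infarcted Neil3-null tissue, and 188% and 183% in infarcted and non-infarcted wild-type tissue. Pdpn, which encodes the mucin-like protein podoplanin of activated fibroblasts and lymphatic endothelium, spans chr4:143267409-143299564 and had 33 sites. Its ratio was 193% in infarcted Neil3-null, 163% in non-infarcted Neil3-null, 179% in infarcted wild-type and 159% in non-infarcted wild-type tissue. As at Pdgfra, Tcf21, Tbx18 and Fap, both infarcted samples were above both non-infarcted ones. The medians over all genes had this order too. They were 119% in each infarcted sample, 117% in non-infarcted Neil3-null and 114% in non-infarcted wild-type tissue. Relative to the median gene, the infarct difference was -0.02 at Tbx18 in Neil3-null and -0.03 at Fap in wild-type tissue. It was positive elsewhere among these genes. Within 1 kb of the Pdpn start, 5 sites stood at 599% and 606% in infarcted and non-infarcted Neil3-null tissue, and 613% and 498% in infarcted and non-infarcted wild-type tissue, and the other 28 lay between 122% and 147% in the 4 samples.

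Fap, a serine protease gene of activated fibroblasts on chr2:62500936-62575509, had 19 sites and ratios of 105% and 96.5% in infarcted and non-infarcted Neil3-null tissue, and 99.7% and 97.2% in infarcted and non-infarcted wild-type tissue. Dcn and Lum encode decorin and lumican, small leucine-rich proteoglycans that bind collagen fibrils. Dcn (chr10:97479500-97518163, 12 sites) stood at 84.0% in infarcted Neil3-null, 79.7% in non-infarcted Neil3-null, 94.1% in infarcted wild-type and 90.0% in non-infarcted wild-type tissue. Lum (chr10:97565501-97572703, 3 sites) stood at 78.8% and 93.6% in infarcted and non-infarcted Neil3-null tissue, and 87.2% and 90.0% in infarcted and non-infarcted wild-type tissue. These 2 neighbours, both with fewer than 3 sites per 10 kb, had higher means than only 16.3% and 16.7% of all genes.

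Dcn had the most extreme value of any member, in the C+mC to MspI ratio. The ratio was 53.1% in infarcted Neil3-null, 56.1% in non-infarcted Neil3-null, 61.6% in infarcted wild-type and 54.0% in non-infarcted wild-type tissue, against medians over all genes of 103%, 102%, 101% and 104%. Of 16887 genes, 20 and 28 had a lower ratio in infarcted and non-infarcted Neil3-null tissue and 123 and 101 in infarcted and non-infarcted wild-type tissue, and 0.189% had a lower mean over the 4. The low ratio was spread along the gene: 9 of its 12 sites had a mean C+mC to MspI ratio under 100%. At the site 35932 bp from the lower end, the C+mC signal was 38.6 and 26.6 in infarcted and non-infarcted Neil3-null tissue, and 32.1 and 30.4 in infarcted and non-infarcted wild-type tissue. The MspI signal of that site was 121 and 93.7 in infarcted and non-infarcted Neil3-null tissue, and 107 and 122 in infarcted and non-infarcted wild-type tissue. C+mC was thus below MspI in all 4 samples. At the site 28452 bp from that end, C+mC lay between 31.2 and 40.1 and MspI between 70.3 and 95.1 over the 4 samples.

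Genes with few CCGG sites had lower C+mC to MspI ratios in general, and Dcn was low among those too. It has 2.81 sites per 10 kb. Over the 1826 genes with fewer than 3 sites per 10 kb, the median ratio was 86.1%, 90.2%, 87.3% and 86.3% in infarcted Neil3-null, non-infarcted Neil3-null, infarcted wild-type and non-infarcted wild-type tissue, and 12 of them (0.657%) had a mean below that of Dcn. Lum stood at 66.8% and 76.2% in infarcted and non-infarcted Neil3-null tissue, and 79.0% and 76.3% in infarcted and non-infarcted wild-type tissue, lower than all but 4.06% of genes by its mean, from 3 sites. At the other end, Thy1 stood at 154% and 139% in infarcted and non-infarcted Neil3-null tissue, and 156% and 181% in infarcted and non-infarcted wild-type tissue, above 97.2% of genes by its mean. Of the other members, Tcf21 stood at 111% and 127% in infarcted and non-infarcted Neil3-null tissue, and 109% and 150.1% in infarcted and non-infarcted wild-type tissue. Pdpn stood at 119% and 99.9% in infarcted and non-infarcted Neil3-null tissue, and 100.3% and 124% in infarcted and non-infarcted wild-type tissue. Over the 4 samples Pdgfra lay between 105% and 116%, Wt1 between 98.9% and 114%, Tbx18 between 109% and 134%, Fap between 88.2% and 95.2%, and Ddr2 between 84.3% and 101%.

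The first comparison was infarcted against non-infarcted ventricle within each genotype. No member differed by 0.32 on the log2 scale, the fold required for a call, in the HpaII to MspI ratio in either genotype, but most lay slightly higher in infarcted tissue. In Neil3-null tissue all 9 counted members were above 0, with a median log2 difference of 0.08, and 6 were above the median gene, which itself differed by 0.03. In wild-type tissue 8 were above 0, with a median of 0.12, and 6 were above the median gene at 0.06. With 0 of 9 members past the fold, the share over all genes was 2.4% in Neil3-null and 5.38% in wild-type tissue, and 61.2% of all genes in Neil3-null and 69.1% in wild-type tissue were above 0. Other summaries did call members: the median over sites put 2 past the fold in Neil3-null (Dcn and Pdpn) and 1 in wild-type tissue (Tbx18). That summary called 19.77% of all genes in Neil3-null and 24.35% in wild-type tissue, so these counts are near or below the background. In wild-type tissue a 5 kb flank called Tbx18 (and 4.54% of all genes). Leaving out each gene's strongest site called Pdgfra there (and 6.05% of all genes).

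Pdgfra and Pdpn had the largest infarct differences when both genotypes are averaged. Pdgfra differed by 0.15 in Neil3-null and 0.32 in wild-type tissue (1.24-fold, just under the fold required), and Pdpn by 0.25 and 0.18. At Pdgfra the difference was 0.40 and 0.35 over the 15 sites within 10 kb of the far end, 0.10 and 0.20 at the start end, and -0.02 and 0.35 over the interior. At Pdpn it was 0.47 and 0.12 over the 12 interior sites, 0.13 and 0.34 at the start end, and -0.09 and -0.02 over the 8 sites within 10 kb of the far end. These segments were laid out after the values had been seen.

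Tbx18 and Tcf21 differed in wild-type tissue (0.31 and 0.28) far more than in Neil3-null tissue (0.00 and 0.05), a contrast between genotypes that was not tested. Wt1 was the one counted member with a value below 0, at -0.08 in wild-type against 0.00 in Neil3-null tissue. Thy1 differed by 0.11 in Neil3-null and 0.04 in wild-type tissue, Fap by 0.12 and 0.04, Ddr2 by 0.02 and 0.12, and Dcn by 0.08 and 0.06. Lum lay at -0.25 in Neil3-null and -0.04 in wild-type tissue. The median over sites turned the direction at Fap in Neil3-null tissue (-0.14) and at Ddr2 (-0.21) and Dcn (-0.20) in wild-type tissue. In bulk tissue a change in the share of fibroblasts and a change of modification within fibroblasts cannot be told apart.

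**Figure D2:**
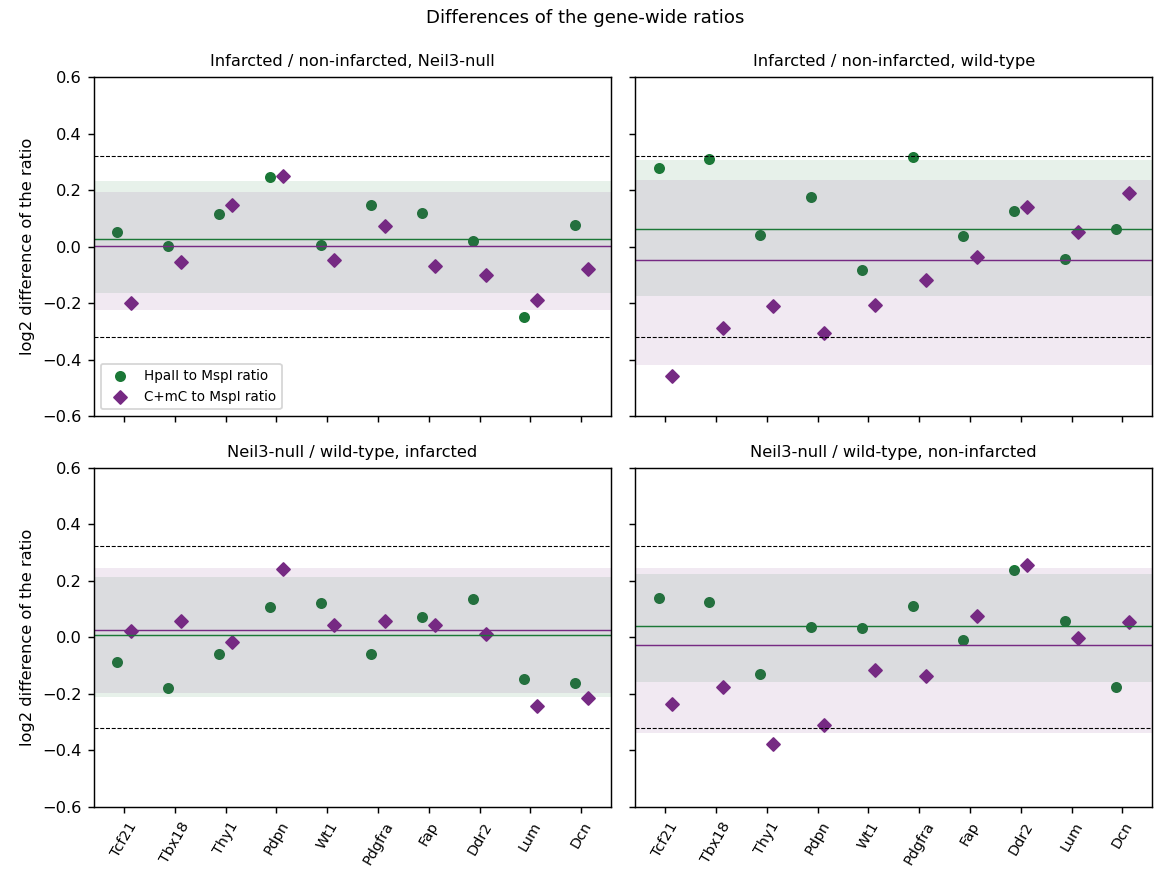
Log2 differences of the gene-wide ratios for each member, HpaII to MspI (circles) and C+mC to MspI (diamonds), for infarcted against non-infarcted tissue (top) and Neil3-null against wild-type (bottom). Solid lines are the medians and shaded bands the 5th to 95th percentiles over 16887 genes, and dashed lines mark the fold required for a call, 0.32. Most circles lie inside the bands, and Tcf21 and Thy1 are the members with a diamond past a dashed line.

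With 1 sample per group, the effects could be tested only by pooling samples, and the main test was an additive fit over the 4 samples. It set both infarcted samples against both non-infarcted ones with genotype as a term, using limma with Benjamini-Hochberg adjustment over all 16887 genes. With 1 residual degree of freedom, each p-value sets an effect against the disagreement of the 2 genotypes' differences. That disagreement is pooled with a spread shared over genes, and the spread between animals is not measured. For infarction 0 genes passed an adjusted p of 0.05 (0%), and 2125 had an unadjusted p below it. Of the 9 members, 0 passed and 2 had an unadjusted p below 0.05: Pdgfra at a log2 effect of 0.23 ± 0.07 (SE, limma adjusted p = 0.307) and Pdpn at 0.21 ± 0.06 (limma adjusted p = 0.306). Both were higher in infarcted tissue in both genotypes. Tcf21 had 0.17 ± 0.08 (limma adjusted p = 0.446) and Tbx18 0.16 ± 0.09 (limma adjusted p = 0.515). On simulated data this fit called 0% of 200 genes changed by 0.5 on the log2 scale, and 58% at a change of 1. The members' effects were all smaller than 0.5, so the lack of a call says little about effects of their size.

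The infarct difference was also counted by site. Among the 190 member sites with a mean MspI signal of at least 20, 31 (16.3%) had an HpaII to MspI ratio higher by at least that fold in infarcted tissue in both genotypes, against 9.46% of all autosomal sites. In the other direction 14 sites (7.37%) were lower in both, against 8.84% of all. When a mean HpaII signal of at least 20 was required too, 19 of 151 sites (12.6%) were higher, against 7.72%, and 9 (5.96%) were lower, against 7.61%. For the C+mC to MspI ratio, 14 sites (7.37%) were higher in both genotypes, against 8.76%, and 12 (6.32%) lower, against 6.94%. This count was chosen after the values had been seen, and sites of a gene are not independent.

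Pdgfra held 11 of the 31 sites, out of its 37, and Ddr2 held 8 of 51. Thy1 and Pdpn held 3 of 15 and 4 of 19, Wt1 4 of 29 and Fap 1 of 12, while Tcf21, Tbx18, Dcn and Lum held 0. Lower in both genotypes were 5 sites of Ddr2, 4 of Wt1, 2 of Pdgfra, 1 each of Thy1, Tbx18 and Fap, and 0 of Pdpn, Tcf21, Dcn and Lum. With the HpaII minimum the higher sites were 5 of 28 at Pdgfra, 5 of 37 at Ddr2, 4 of 15 at Pdpn and 1 of 21 at Wt1, and the lower sites 2, 2, 0 and 2 at these genes in that order.

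The largest site difference at Pdgfra rested on low HpaII values. At chr5:75182930, 31608 bp from the lower end, HpaII was 20.9 in infarcted Neil3-null against 4.63 in non-infarcted Neil3-null tissue, and 28.3 in infarcted wild-type against 3.18 in non-infarcted wild-type tissue. MspI stayed between 21.9 and 31.0 in these samples. Both non-infarcted HpaII values lie under the 5th percentile of their libraries, which was 7.67 in non-infarcted Neil3-null and 6.18 in non-infarcted wild-type tissue. The ratio differed by 2.24 and 3.64 on the log2 scale.

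At Pdpn the HpaII signal of 3 neighbouring sites in the gene body was higher in infarcted tissue (the plot of signal along Pdpn). At 10858 bp from the lower end, HpaII was 62.7 in infarcted against 42.4 in non-infarcted Neil3-null tissue, and 53.0 against 42.5 in wild-type tissue. At 11264 bp it was 90.0 against 57.0 in Neil3-null and 72.6 against 66.4 in wild-type tissue. At 12022 bp it was 64.7 against 28.4 in Neil3-null and 46.2 against 32.4 in wild-type tissue. MspI at the last of these was 19.8 in infarcted against 20.9 in non-infarcted Neil3-null tissue, and 24.7 in infarcted against 23.5 in non-infarcted wild-type tissue. For the others MspI is shown only in the plot, and their ratios are not given here. The HpaII signal was thus higher in infarcted tissue at each of the 3 sites in both genotypes, while the site 12465 bp from the end had 48.7 in infarcted against 57.3 in non-infarcted Neil3-null tissue and 56.7 in infarcted against 57.1 in non-infarcted wild-type tissue. These sites were picked out after their values had been seen.

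**Figure D3:**
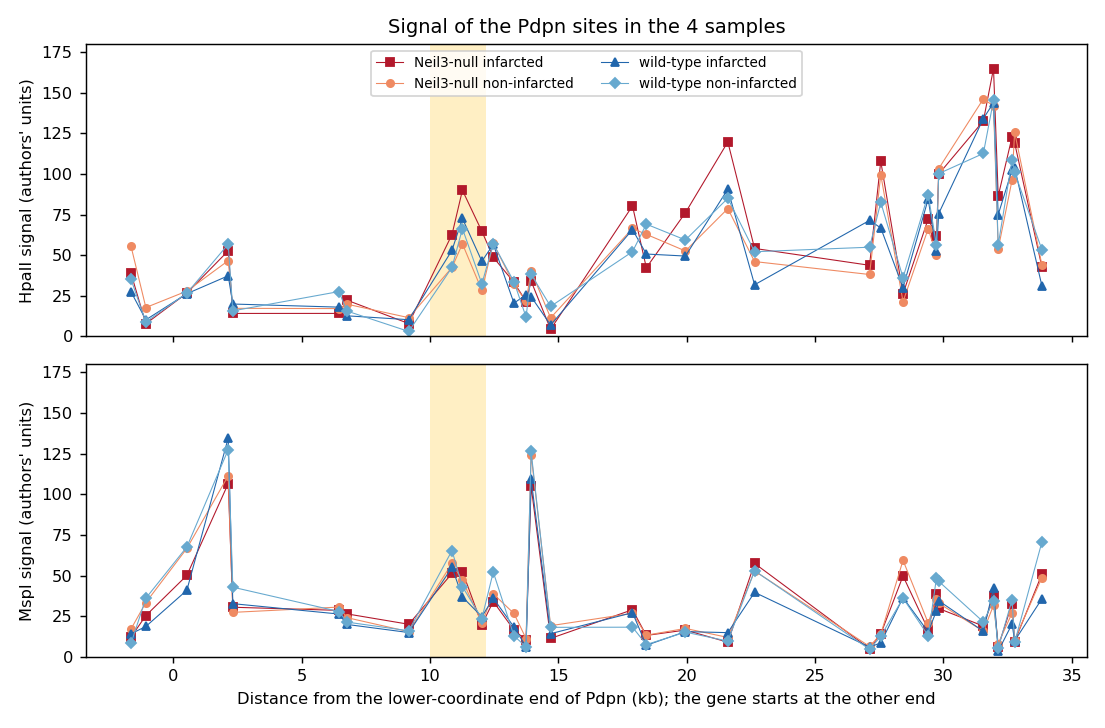
HpaII signal (top) and MspI signal (bottom) in the authors' units at the 33 Pdpn sites listed in all 4 samples, against distance from the lower-coordinate end in kb, with 1 line per sample and the 3 gene-body sites shaded. Within the shading the infarcted HpaII values lie above the non-infarcted values of the same genotype, and near the start (right) HpaII lies above MspI at most sites in every sample.

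One Wt1 site had far less signal in every library of infarcted tissue. It lies at chr2:105126919, 390 bp inside the lower end of the gene. Its MspI signal was 16.2 in infarcted against 85.1 in non-infarcted Neil3-null tissue and 10.8 against 61.4 in wild-type tissue. C+mC was 24.0 against 98.98 in Neil3-null and 9.64 against 90.0 in wild-type tissue, and HpaII was 17.8 against 139.5 in Neil3-null and 3.52 against 128 in wild-type tissue. All 3 libraries were therefore lower in infarcted tissue in both genotypes. Since MspI also cuts the motif when its inner cytosine is methylated, the ratio at this site, 109% against 164% in Neil3-null and 32.6% against 208.5% in wild-type tissue, does not rest on HpaII alone.

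An MspI difference of this size was rare. Of 682441 autosomal sites with a mean MspI signal of at least 20, 44 (0.00645%) were at least 4-fold lower in infarcted tissue in both genotypes and 0 were at least 4-fold higher. Taking the smaller of the genotypes' log2 differences, -2.39 at the Wt1 site, 24 sites (itself included) lay at or below it. In all 3 libraries together 4 sites were at least 4-fold lower in both genotypes, and 0 were higher. The neighbouring Wt1 sites 256 bp outside and 601 bp inside the end differed far less. MspI at the outer one was 71.7 in infarcted against 78.7 in non-infarcted Neil3-null tissue and 73.9 against 88.3 in wild-type tissue, and at the inner one 12.4 against 12.7 in Neil3-null and 8.92 against 11.4 in wild-type tissue. The ratio of the whole gene barely depended on the site: without it Wt1 stood at 149% and 147% in infarcted and non-infarcted Neil3-null tissue, and 138% and 142% in infarcted and non-infarcted wild-type tissue, with infarct differences of 0.02 in Neil3-null and -0.05 in wild-type tissue. What lowers the signal was not tested.

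**Figure D4:**
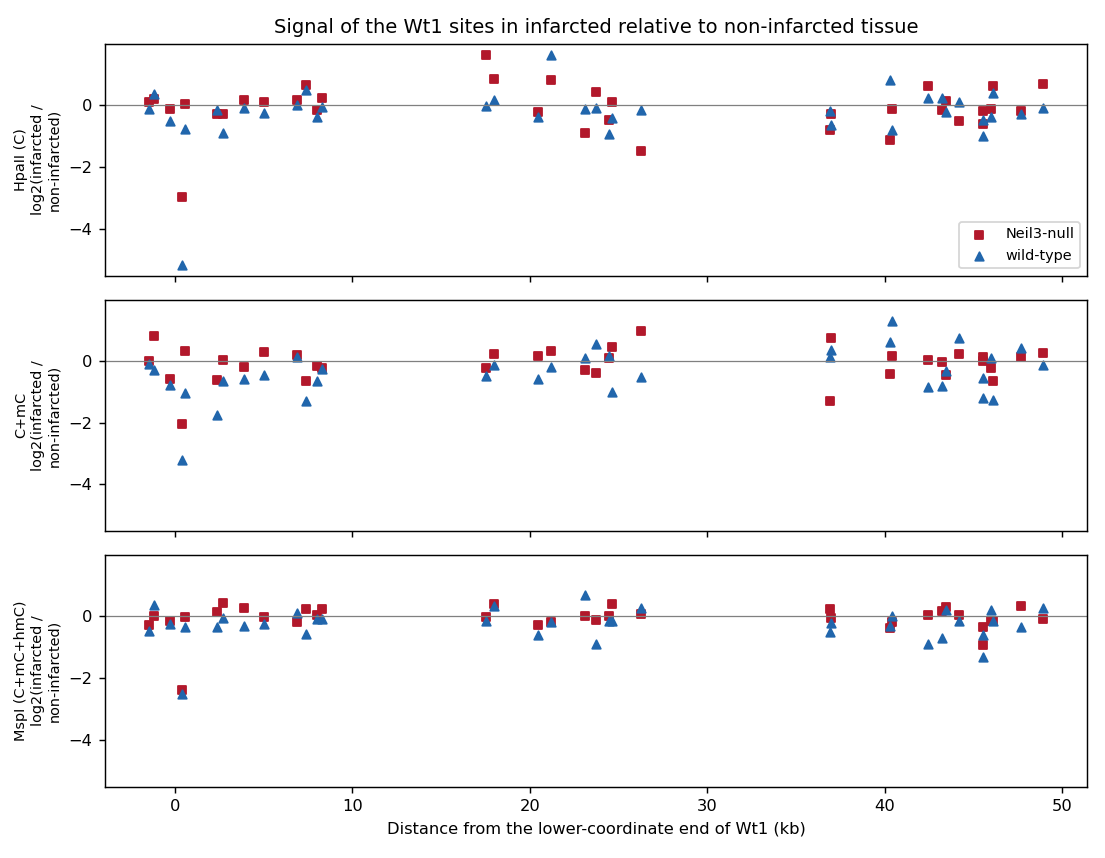
Log2 ratio of infarcted to non-infarcted signal at the 36 Wt1 sites for the HpaII, C+mC and MspI libraries, against distance from the lower-coordinate end in kb, with Neil3-null as squares and wild-type as triangles. The site 390 bp inside the end lies at or below -2.04 in all 3 panels and both genotypes, below the other sites of its panel and genotype.

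The infarct difference in the C+mC to MspI ratio put 1 member past the fold in wild-type and 0 in Neil3-null tissue. In wild-type tissue Tcf21 was past the fold, at 109% in infarcted against 150.1% in non-infarcted tissue, a log2 difference of -0.46. The share of genes past the fold there was 12.3%, so 1 of 9 members is near the background. The members' median was -0.21 and that of all genes -0.05. In Neil3-null tissue no member was past it (2.45% of all genes were), and the members' median was -0.06 against 0.00. Tcf21 lay at -0.20 there, the lowest of the 9, but at 0.18 over the 3 sites left without the flank. Pdpn lay at 0.25 in Neil3-null and -0.31 in wild-type tissue, and Tbx18 at -0.06 and -0.29. Thy1 lay at 0.15 and -0.21, Wt1 at -0.05 and -0.21, Pdgfra at 0.07 and -0.12, and Dcn at -0.08 and 0.19. Whether the wild-type values come from the non-infarcted C+mC library that stood apart was not tested.

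The second comparison was Neil3-null against wild-type ventricle. No member was past the fold in the HpaII to MspI ratio in infarcted tissue, where 2.49% of all genes were, or in non-infarcted tissue, where 2.04% were. The members' median was -0.06 in infarcted tissue, with 4 of 9 above 0, and 0.04 in non-infarcted tissue, with 6 of 9 above 0. The medians of all genes were 0.01 and 0.04. By site, 20 of 190 (10.5%) were higher in Neil3-null tissue by at least the fold in both tissues, against 8.52% of all autosomal sites, and 16 (8.42%) were lower, against 7.19%.

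Ddr2 and Dcn were the members that differed between genotypes in the same direction in both tissues by the most. Ddr2 was higher in Neil3-null tissue, by 0.14 in infarcted and 0.24 in non-infarcted ventricle. Dcn was lower, at -0.16 in infarcted and -0.18 in non-infarcted ventricle. By the median over sites neither gene kept 1 direction: Ddr2 lay at 0.23 in infarcted and -0.06 in non-infarcted ventricle, and Dcn at 0.28 in infarcted and -0.39 in non-infarcted ventricle. The additive limma fit gave genotype effects of 0.19 ± 0.07 for Ddr2 (SE, limma adjusted p = 0.741) and -0.17 ± 0.06 for Dcn (limma adjusted p = 0.742), the 2 members with an unadjusted p below 0.05. No member passed. Over all genes 2 passed (0.0118%) and 1119 had an unadjusted p below 0.05.

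The 2 genes called between genotypes lie on the same chromosome as Ddr2, 1.41 and 1.45 Mb beyond its upper end. Itln1 (chr1:171518123-171535325), which encodes an intelectin, stood at 35.4% in infarcted and 37.3% in non-infarcted Neil3-null tissue, against 81.1% in infarcted and 93.8% in non-infarcted wild-type tissue over 8 sites (limma adjusted p = 0.0149). Cd244a (chr1:171558718-171585316), which encodes a receptor of natural killer cells, stood at 101% and 97.1% in Neil3-null against 186% and 185.9% in wild-type tissue over 9 sites (limma adjusted p = 0.0398). Both are named as the only calls, after their values had been seen. With at least 10 sites per gene, which leaves both out, 0 genes passed, and relative to the median gene 1 did.

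Ddr2 itself differed between genotypes in which sites were listed at all. Its span held 79 listed sites in infarcted Neil3-null, 75 in non-infarcted Neil3-null, 87 in infarcted wild-type and 91 in non-infarcted wild-type tissue. Both wild-type samples listed 85 of these, of which 9 (10.6%) were missing from both Neil3-null lists, against 0.748% of 1010500 such sites over the autosomes. The reverse held for 0 Ddr2 sites and for 0.309% of autosomal sites. The other 9 members had 0 sites of the first kind. At chr1:170090955 the MspI signal was 128 in infarcted and 145.5 in non-infarcted wild-type tissue with no listed value in either Neil3-null sample, so not every such site was a weak one. The missing sites went on beyond Ddr2: from there to the upper end of Cd244a, neither Neil3-null list held 155 of the 946 sites that both wild-type lists held (16.4%), while 2 of 776 (0.258%) were missing the other way. Itln1 had 1 of 9 such sites missing and Cd244a 2 of 12. This stretch was chosen after the values had been seen.

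**Figure D5:**
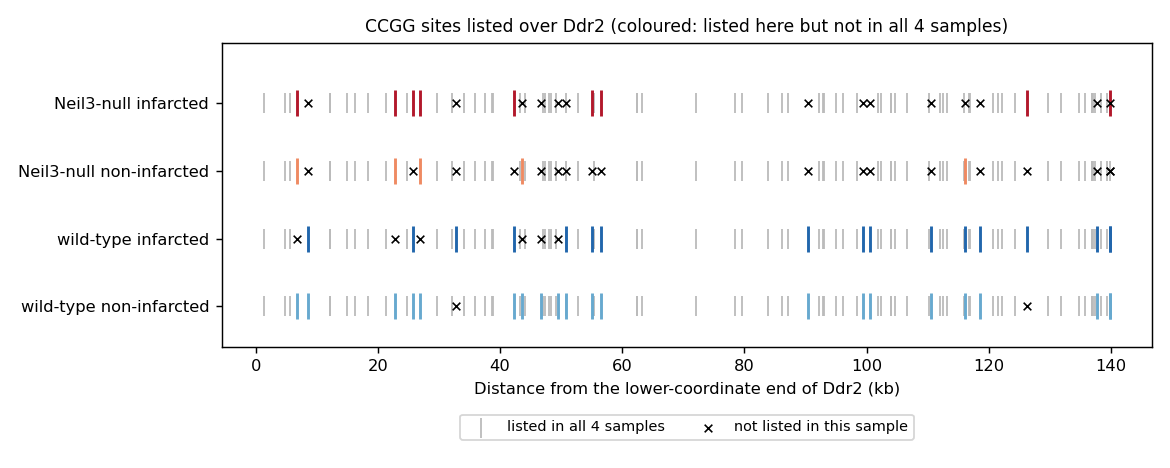
CCGG sites listed over Ddr2 in each sample against distance from the lower-coordinate end in kb. Grey marks are the 70 sites listed in all 4 samples, coloured marks the sites listed in that sample but not in all 4, and crosses sites listed elsewhere and not in that sample. In 9 positions both Neil3-null rows have crosses and both wild-type rows have marks.

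A further 2 Ddr2 sites were listed everywhere but had a far lower MspI signal in both Neil3-null samples than in either wild-type one. At chr1:170078990 MspI was 20.8 in infarcted Neil3-null against 57.8 in infarcted wild-type tissue, and 8.84 in non-infarcted Neil3-null against 81.3 in non-infarcted wild-type tissue. HpaII there was 31.5 in Neil3-null against 6.76 in wild-type infarcted tissue and 31.8 in Neil3-null against 15.2 in wild-type non-infarcted tissue. At chr1:170104167 MspI was 9.82 in Neil3-null against 28.7 in wild-type infarcted tissue and 8.78 in Neil3-null against 22.8 in wild-type non-infarcted tissue. Without both sites the Ddr2 genotype difference was 0.10 in infarcted and 0.19 in non-infarcted tissue. The genotypes' DNA sequence over this stretch was not tested, so at Ddr2, Itln1 and Cd244a a difference of sequence and one of modification cannot be told apart.

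At Dcn the lower ratio of Neil3-null tissue was found in the gene body in both tissues and at the lower end in infarcted tissue. The segments, made as at Pdgfra and Pdpn, were laid out after the values had been seen. The 6 interior sites stood at 62.4% in infarcted Neil3-null against 82.4% in infarcted wild-type tissue, and at 59.5% in non-infarcted Neil3-null against 87.4% in non-infarcted wild-type tissue. The 3 sites at the lower end stood at 209% against 230.1% in infarcted and 209% against 193% in non-infarcted tissue, and the 3 at the upper end at 32.0% against 30% in infarcted and 35.0% against 32.5% in non-infarcted tissue. The interior ratio was thus lower in Neil3-null than in wild-type tissue in both pairs, and the upper-end ratio slightly higher. One interior site, 16941 bp from the lower end, had HpaII at 4.22 and 4.51 in infarcted and non-infarcted Neil3-null tissue against 3.55 and 13.9 in infarcted and non-infarcted wild-type tissue, all but the last under the 5th percentile of their libraries.

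The genotype difference in the C+mC to MspI ratio put 0 of 9 members past the fold in infarcted tissue (3.32% of all genes) and 1 in non-infarcted tissue (8.43% of all genes). That was Thy1, at 139% in Neil3-null against 181% in wild-type tissue, a log2 difference of -0.38. Pdpn lay at -0.31, Ddr2 at 0.25 and Tcf21 at -0.24 there. In infarcted tissue, where the library that stood apart is not used, these 4 genes lay at -0.02, 0.24, 0.01 and 0.02 in the order Thy1, Pdpn, Ddr2, Tcf21. Dcn lay at -0.22 in infarcted and 0.05 in non-infarcted tissue.

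Related lists were described in the same way for the infarct difference in the HpaII to MspI ratio. Of 12 further epicardial genes 1 was past the fold in each genotype, against 2.4% of all genes in Neil3-null and 5.38% in wild-type tissue. It was Msln, which encodes the mesothelial surface protein mesothelin. It stood at 82.9% in infarcted against 61.7% in non-infarcted Neil3-null tissue and at 61.5% against 43.9% in wild-type tissue over 7 sites. The median of the 12 was 0.00 in Neil3-null and 0.09 in wild-type tissue, and 5 and 8 were above the median gene. The lowest were Gpm6a at -0.11 in Neil3-null and Upk1b, a uroplakin gene of mesothelium, at -0.18 in wild-type tissue.

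Of 16 genes of activated fibroblasts and myofibroblasts, 0 were past the fold in Neil3-null and 1 in wild-type tissue, which is near the 5.38% of all genes there. It was the collagen gene Col3a1, at 146% in infarcted against 110.6% in non-infarcted wild-type tissue (0.40), and at 145% against 139.9% in Neil3-null tissue (0.05). Acta2, which encodes smooth muscle actin, a protein of myofibroblasts, lay at -0.05 in Neil3-null and, just under the fold, at 0.32 in wild-type tissue. Postn, which encodes the matricellular protein periostin, lay at 0.24 in Neil3-null and 0.18 in wild-type tissue. Other genes of the list lay lower: Lox and Cilp both at -0.11 in Neil3-null, and Cilp at -0.11 in wild-type tissue, where the lowest value was -0.14. The median of the 16 was 0.01 in Neil3-null and -0.02 in wild-type tissue, and 7 and 6 were above the median gene. Of 13 genes of PDGF and TGF-beta signalling 0 were past the fold in either genotype, with medians of -0.02 in Neil3-null and 0.05 in wild-type tissue. Smad2, a transducer of TGF-beta signals, lay at -0.17 in Neil3-null and 0.16 in wild-type tissue.

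Marker genes of other cells of the ventricle were described beside these. Of 8 cardiomyocyte genes 1 lay above the median gene in each genotype, and their median was -0.09 in Neil3-null and -0.17 in wild-type tissue. Tnnt2, which encodes cardiac troponin T, stood at 124% in infarcted against 131% in non-infarcted Neil3-null tissue and at 106% against 136% in wild-type tissue, past the fold in the last pair. Of 6 endothelial genes 0 lay above the median gene in either genotype, with medians of -0.03 in Neil3-null and -0.05 in wild-type tissue. The medians were 0.06 in Neil3-null and 0.10 in wild-type tissue for 5 smooth muscle and pericyte genes, and 0.03 in Neil3-null and 0.10 in wild-type tissue for the 5 counted of 8 leukocyte genes. The part that a changed mix of cells plays in the members' values was not tested.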

How the data were processed

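Genomic DNA of 4 samples was profiled by HMST-seq with 3 libraries each. Each deposited value is the authors' normalized signal of a library at a CCGG site, and coordinates are mm10 according to the submitters' processing notes. Aligner, normalization and filters were not stated in the sources used here. Tag depth is unknown, so no counting error can be given.

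Sites listed in all 4 samples were summed over each gene of a RefSeq table (GRCm38.p6, which has no strand or exons) and 2 kb on either side. Genes with fewer than 5 sites were left out of counts. Ratios to MspI were compared as log2 differences and called at 0.32. With 1 sample per group, pairs of samples have no replicates and were given no p-value. Main effects of infarction and genotype on the log2 HpaII to MspI ratio were estimated in R 4.3.3 using limma 3.58.1, in a script tested on simulated data. That simulation recovered 0% of the genes given an infarct effect of 0.5 on the log2 scale. Other steps used Python 3.11.15, numpy 2.4.6 and pandas 2.3.3. The members, the gene lists, the tests and the alternatives were chosen with earlier results of these data known. Named were all 10 members, for each the sites with the highest and lowest infarct difference where described, up to 2 highest and 2 lowest genes of each related list, and items said to be chosen after their values were seen.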

Additional observations from a re-analysis of the deposited data

Results flagged for a closer look

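Opposite infarct differences in the genotypes were sought only at each member's highest and lowest site by the mean HpaII to MspI difference. Ranking by that mean tends to pass over opposed sites, and the other member sites were not searched. Among the searched sites, 1 at Pdgfra was past the fold in opposite directions in the genotypes. At chr5:75181326, 30004 bp from the lower end, HpaII was 4.12 in infarcted against 19.9 in non-infarcted Neil3-null tissue, and 17.9 in infarcted against 11.1 in non-infarcted wild-type tissue. MspI was 27.9 against 35.9 in Neil3-null and 39.0 against 34.7 in wild-type tissue. The log2 difference was -1.91 in Neil3-null and 0.52 in wild-type tissue, which are -2.44 apart. The difference between the genotypes was not tested, with 1 sample per group. The infarcted Neil3-null HpaII value lies under the 5th percentile of its library (7.54).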

How the results depend on the processing

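The summary per gene mattered most. With the median over sites of the log2 ratio (pseudocount 1) in place of ratios of sums, the members past the fold were 2, 1, 1 and 2 for HpaII (infarction in Neil3-null, infarction in wild-type, genotype in infarcted, genotype in non-infarcted tissue) and 3, 4, 1 and 3 for C+mC. The members' median also changed sign for C+mC after infarction in Neil3-null (0.12, against -0.06) and for the HpaII to MspI ratio of Neil3-null against wild-type in non-infarcted tissue (-0.0754, against 0.04). Over all genes that summary called 19.77%, 24.35%, 21.56% and 19.33% for HpaII and 11.28%, 24.37%, 11.32% and 21.77% for C+mC. As counts these were 3338, 4112, 3640 and 3265 for HpaII and 1905, 4115, 1912 and 3676 for C+mC. Ratios of sums called 406, 908, 421 and 344, and 413, 2080, 560 and 1424. At 1.5-fold the counts were 30, 75, 28 and 15, and 14, 267, 21 and 125, and the C+mC calls of Tcf21 and Thy1 ended (0 members). For HpaII after infarction in wild-type, 1 member was past the fold with a 5 kb flank (Tbx18) and 1 without each gene's strongest site (Pdgfra). Those settings called 4.54% and 6.05% of all genes. For C+mC, 1 member was past it after infarction in Neil3-null with no flank (Thy1, against 2.98% of all genes). With a 5 kb flank, 0 members were past it for genotype in non-infarcted tissue (6.64% of all genes). Relative to the median gene no member call changed, while the calls over all genes split otherwise: for infarction in wild-type 373 higher and 325 lower for HpaII (726 and 182 without it). The genotype fit called 1 gene relative to the median and 0 with at least 10 sites. Of 800 member values under alternatives 718 kept within 0.1 on the log2 scale and 82 moved, 20 of them at Lum and 17 at Tcf21. Without the other factor as a term, limma called 0 genes for infarction and 2 for genotype, and 1 member (Ddr2) in place of 2 had an unadjusted p below 0.05 for genotype. No paired analysis was possible because the labels give no replicate numbers; the additive fit already compares infarction within genotype. The unknown depth, low HpaII values and 1 sample per group limit all values.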
